A study of Mus musculus with 14 samples.

Results

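The inflammasome is the protein platform that activates inflammatory caspases, and 10 of its genes were followed by name through 14 lists of histone mark peaks from mouse kidney. The 10 genes were Nlrp3, Aim2, Nlrc4, Nek7, Txnip, Pycard, Casp1, Casp4, Gsdmd and Il18, among 49943 RefSeq genes on the autosomes, X and Y. Chromatin immunoprecipitation with sequencing was used for crotonylated lysine 9 of histone H3 (H3K9cr) in 8 libraries and for its acetylated form (H3K9ac) in 6. The kidneys came from wild-type (WT) mice and from mice with a CRISPR/Cas9 deletion of ACSS2, an enzyme that makes acyl-CoA from short-chain fatty acids, written ACSS2-/-. Each genotype was studied as control and after unilateral ureteric obstruction (UUO), in which a ligated ureter injures the kidney and leads to fibrosis. H3K9cr had 2 libraries in each of the 4 groups. For H3K9ac there were 2 libraries per genotype after UUO and 1 per genotype without it. The deletion was global and not limited to a cell type, and the study used littermates as WT animals. The labels give neither the age of the mice nor the time after obstruction, and they do not say whether the libraries of a group came from separate mice, so that p-values measure only the spread between these libraries. They also give each group a catalogue number of its own for the antibody against each mark. These numbers are consecutive from group to group for both marks. The study names a single antibody supplier for each mark, PTM for H3K9cr and Active Motif for H3K9ac. Whether the numbers name different antibodies or are an error of entry is not known. If they are right, a difference between antibodies and one between groups cannot be told apart.

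Cells sense damage and microbial products through receptors such as NLRP3, AIM2 and NLRC4, which recruit caspase-1, for NLRP3 and AIM2 through the adaptor ASC encoded by Pycard. Caspase-1 and the mouse caspase-11, encoded by Casp4, cut gasdermin D, whose fragment opens pores in the membrane, and caspase-1 also matures the cytokines IL-1 beta and IL-18. Acylation of H3 lysine 9 is found at the starts of active genes, and transcription of sensors such as Nlrp3 is itself a regulated step, known as priming.

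The measure used throughout was cover, the number of base pairs of a gene with 10 kb either side that lay inside peaks of a library. The lists hold no height or score for a peak, so neither the strength of a mark nor the sequencing depth is known, and a library with more or longer peaks has more cover at most genes. The lists of H3K9cr held 27530 to 45014 peaks covering 29.4 to 64.6 Mb, and those of H3K9ac 15988 to 32760 peaks covering 17.7 to 51.1 Mb. Among H3K9cr libraries, ACSS2-/- control replicate 1 stood apart at the high end with 64.6 Mb, and ACSS2-/- UUO replicate 2 had the lowest cover, 29.4 Mb in 27530 peaks. Among H3K9ac libraries, both control libraries covered more (34.2 Mb in WT, 51.1 Mb in ACSS2-/-) than the 4 UUO libraries, which covered 17.7 to 30.9 Mb.

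The numbers in the names of the peaks differ from the replicate numbers of the labels in 4 libraries. H3K9cr replicate 1 of WT UUO and of ACSS2-/- UUO carry the number 3 there, as does H3K9ac replicate 2 of ACSS2-/- UUO, while H3K9ac replicate 1 of ACSS2-/- UUO carries the number 2. Peaks on chromosome Y outside its pseudoautosomal end were present in some libraries of a group and absent from others, for example 9 in H3K9cr replicate 1 and 0 in H3K9cr replicate 2 of ACSS2-/- UUO, and 0 in H3K9ac replicate 1 and 7 in H3K9ac replicate 2 of that group. The labels do not give the sex of the mice. The study drew the libraries of both marks from shared samples, but the labels do not say which H3K9cr library shares its sample with which H3K9ac library.

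The 6 proximal tubule markers together had 26105 to 56749 bp of H3K9cr cover in the 4 control libraries and 5798 to 11070 bp in the 4 UUO libraries. Cubn, 1 of the 6, went the other way in WT, with 3229 and 3047 bp in control and 7821 and 4492 bp in UUO. The H3K9cr lists covered 41.7 to 64.6 Mb in control and 29.4 to 44.6 Mb in UUO. At the deleted gene Acss2, H3K9cr cover was 1785 and 2169 bp in WT control, 6493 and 2318 bp in ACSS2-/- control, 2480 and 2338 bp in WT UUO, and 1291 and 1925 bp in ACSS2-/- UUO. Its H3K9ac cover was 3414 bp in WT control, 4821 bp in ACSS2-/- control, 869 and 2060 bp in WT UUO, and 760 and 2197 bp in ACSS2-/- UUO. Marks remained at the locus in both genotypes, so these lists cannot check the genotype labels.

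At least 1 peak lay in the window of a listed gene in 101 of 140 pairs of gene and library. Nek7, Txnip, Pycard and Gsdmd were covered in all 14 libraries and the other 6 genes in some of them. The largest number of the 10 genes, 10, was covered in WT UUO H3K9cr replicate 1 and the smallest, 5, in ACSS2-/- control H3K9cr replicate 2 and in the ACSS2-/- control H3K9ac library. Of all genes, 34.0% were covered in every library and 58.8% in at least 1.

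UUO was first compared with control over both genotypes. No listed gene had more H3K9cr in all 4 UUO libraries than in all 4 control libraries (0 of 10, against 2.38% of all genes tested), and 1 of 10, Txnip, had less in all of them (16.8% of all genes), a share of the list no larger than that of all genes. The test was an exact two-sided permutation of libraries, in which 4 against 4 cannot give a p under 0.0286 and no gene among 28438 reached an adjusted p under 0.149. At an unadjusted p under 0.05, 1 of the 10 genes was called, again Txnip, a smaller share than the 19.2% of all genes. Permuted within genotypes, or with the replicate block, Txnip had an exact permutation p of 0.0556. That is the smallest p these permutations allow, so no gene could be called at 0.05. Txnip stayed lower in UUO without overlap in both settings. Leaving out ACSS2-/- UUO replicate 2, the H3K9cr library with the least cover, raised the count of genes with more H3K9cr from 0 to 3, namely Nlrp3, Casp1 and Gsdmd, where the share of all genes became 6.84%. Leaving out ACSS2-/- control replicate 1 raised it to 1, Gsdmd (4.41% of all genes). Division by the covered Mb of each library, which raises genes in libraries that cover less, made 2 of 10 genes, Pycard and Gsdmd, higher in UUO, near the 14.2% of all genes, and 0 of 10 lower (7.45% of all genes). With the 15988 longest peaks of each library 1 gene, Gsdmd, was higher (2.99% of all genes) and 1, Txnip, lower (13.2%), and with 1 kb around gene ends Txnip was not lower.

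In WT kidneys alone, 6 of 10 genes (Nlrp3, Aim2, Pycard, Casp1, Casp4 and Gsdmd) had more H3K9cr in both UUO libraries than in both controls, where 22.6% of all genes did, and 1 of 10, Txnip, had less, where 26.6% did. That share was not tested: the genes were chosen with earlier results known, and Casp1 and Casp4 share peaks. With the 15988 longest peaks of each library 4 genes were higher (21.6% of all genes), without Nlrp3 and Aim2, and 1 was lower (25.1%). Per covered Mb the higher genes numbered 7, with Nek7 added (30.6% of all genes), and 1 was lower (20.5%). In ACSS2-/- kidneys 1 of 9 genes with any cover, Casp4, was higher in UUO (4.56% of all genes) and 2 of 9, Txnip and Pycard, were lower, a smaller share than the 51.7% of all genes. Groups of 2 and 2 allow no exact p under 0.333, and the difference between the genotypes in the effect of UUO was not tested. In ACSS2-/- the counts rest on single libraries and on the unit: without ACSS2-/- UUO replicate 2 the higher genes numbered 6 (21.1% of all genes), without ACSS2-/- UUO replicate 1 the lower genes numbered 4 (73.4% of all genes), and per covered Mb 4 of 9 (Nek7, Pycard, Casp4 and Gsdmd) were higher, close to the 38.2% of all genes, and 0 lower (17.5%). With the longest peaks 1 gene, Gsdmd in place of Casp4, was higher (9.85% of all genes) and 1, Txnip, was lower (44.1%). With 1 kb around gene ends Nek7 and Pycard were lower, and Txnip and Casp4 were not apart. No share of all genes was counted for that setting, and nothing about the list is read from it. Markers of cell types were counted in the same libraries. In WT, more H3K9cr was found for 8 of 10 myeloid, 5 of 6 lymphoid, 4 of 5 injured tubule, 2 of 4 stroma and 2 of 4 endothelial markers and for 1 of 6 proximal tubule markers, and less for 5 of 6 proximal tubule, 4 of 4 distal nephron and 2 of 4 endothelial markers. Of all genes, 22.6% had more in WT and 26.6% had less. In ACSS2-/-, more was found for 5 of 9 myeloid, 2 of 5 lymphoid, 1 of 5 injured tubule and 2 of 4 stroma markers. Less was found there for 2 of 9 myeloid, 1 of 5 lymphoid, 1 of 5 injured tubule, 6 of 6 proximal tubule, 3 of 4 distal nephron and 2 of 4 endothelial markers. Of all genes, 4.56% had more in ACSS2-/- and 51.7% had less. The counts of lower myeloid, lymphoid, injured tubule and endothelial markers there are not above that share, and nothing is read from them. The part of the markers in the counts of listed genes was not tested. Bulk kidney was used, so fewer cells of a type and less of a mark per cell cannot be told apart in any of these comparisons.

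**Figure D1:**
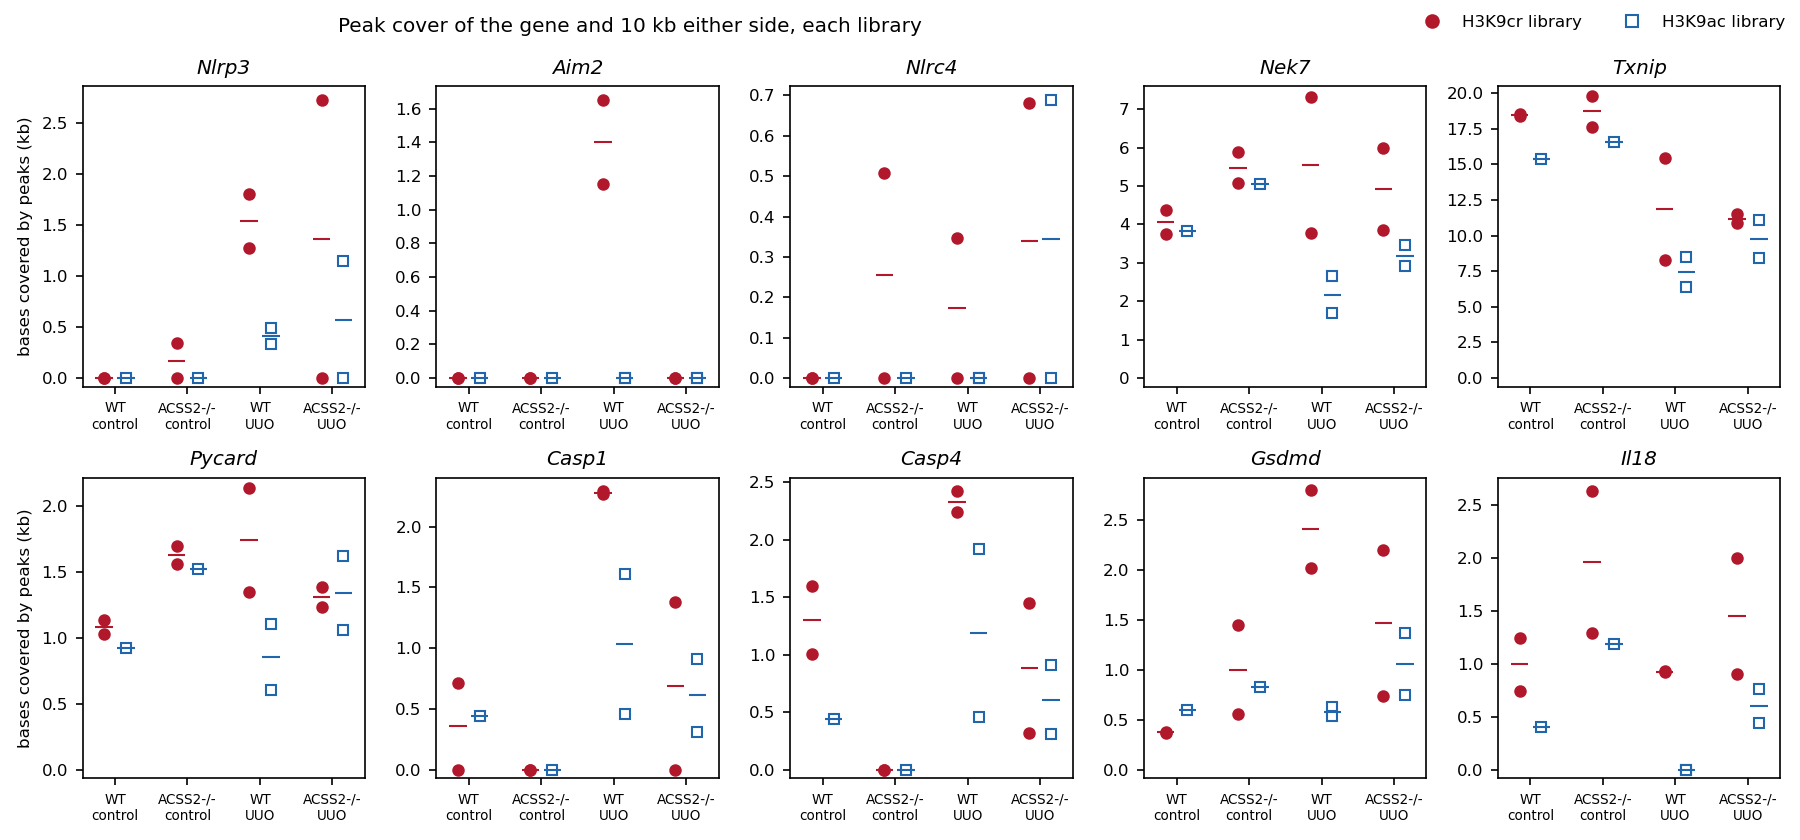
Cover by peaks, in kb, of each listed gene with 10 kb either side, where each point is a library (filled circles H3K9cr, open squares H3K9ac), bars are group means and the horizontal axis gives genotype and operation. Aim2 is covered in the 2 WT UUO H3K9cr libraries only, and Txnip has less H3K9cr cover in each UUO library (8252 to 15418 bp) than in each control library (17637 to 19818 bp).

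Nlrp3, the sensor of ion fluxes and membrane damage, lies on chromosome 11 (59541569 to 59566955, gene ID 216799). Its H3K9cr cover was 0 and 0 bp in WT control, 340 and 0 bp in ACSS2-/- control, 1277 and 1801 bp in WT UUO, and 2728 and 0 bp in ACSS2-/- UUO. Peaks near the starts of Nlrp3 were thus found in 3 of 4 UUO libraries of H3K9cr and in no control library, where the 340 bp peak of ACSS2-/- control replicate 1 lay upstream at 59538445 to 59538784, but the groups overlapped because ACSS2-/- UUO replicate 2 had no peak. The H3K9cr peaks were short, the longest ranking 17053 by length in its list, so that with the 15988 longest peaks of each library Nlrp3 had no H3K9cr cover. H3K9ac cover was 0 bp in both control libraries, 337 and 493 bp in WT UUO, and 0 and 1148 bp in ACSS2-/- UUO. For H3K9ac, too, 3 of 4 UUO libraries and no control library had peaks at Nlrp3. In ACSS2-/- UUO the libraries with Nlrp3 peaks, H3K9cr replicate 1 and H3K9ac replicate 2, carry the same number, 3, in their peak names, and those without carry the number 2.

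The mean over H3K9cr libraries was 1452 ± 1139 bp in UUO (SD, n = 4) and 85.0 ± 170.0 bp in control (SD, n = 4), with an exact permutation p of 0.143 and an adjusted p of 0.351. Over H3K9ac libraries the exact permutation p was 0.333, where 4 against 2 allows no value under 0.0667. RefSeq lists 2 starts for Nlrp3, at 59541569 and 59542686, and the peaks stood beside both rather than on them. Around the second start the nearest H3K9cr peaks of WT UUO replicate 1 ended 563 bp before and began 476 bp after it, those of WT UUO replicate 2 439 and 477 bp, and those of ACSS2-/- UUO replicate 1 112 and 423 bp. The same gap was found in ACSS2-/- UUO H3K9ac replicate 2, at 279 and 457 bp.

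Aim2, the receptor for DNA in the cytosol, was marked in a single group. It had H3K9cr peaks in both WT UUO libraries, with 1155 and 1653 bp of cover, and no peak in the other 12 libraries of either mark. The 2 WT UUO libraries were therefore above both ACSS2-/- UUO libraries and all 4 controls, with means of 1404 ± 352.1 bp (SD, n = 2) against 0 bp. In both libraries a peak, 345 and 412 bp long, spanned the listed start at 173420604 on chromosome 1, while the others lay to its right, except a 464 bp peak just left of it in replicate 1. This start lies inside the gene as annotated, and with 1 kb around the annotated gene ends alone Aim2 was not counted. The peaks across the start were short, ranked 34892 of 36734 and 25638 of 30406 by length in their lists, and with the 15988 longest peaks of each library alone Aim2 no longer separated the groups.

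Nlrc4, whose product also recruits caspase-1, was covered in 4 of 14 libraries, with 348 bp in WT UUO H3K9cr replicate 1, 509 bp in ACSS2-/- control H3K9cr replicate 1, 681 bp in ACSS2-/- UUO H3K9cr replicate 1 and 689 bp in ACSS2-/- UUO H3K9ac replicate 2. All groups overlapped. The 681 and 689 bp peaks covered nearly the same bases, 74458396 to 74459076 and 74458392 to 74459080 on chromosome 17, in the libraries whose peak names share the number 3.

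Nek7, a kinase that binds NLRP3 and is needed for its assembly, carried a peak across its start in all 14 libraries. That peak was 2969 to 3841 bp long in H3K9cr control libraries, 3064 to 3446 bp in H3K9cr UUO libraries, 3041 and 3749 bp in H3K9ac control libraries and 1682 to 3110 bp in H3K9ac UUO libraries. Cover by H3K9cr in the whole window was 4367, 3758, 5067 and 5888 bp in control and 7320, 3774, 5993 and 3857 bp in UUO, and these groups overlapped (exact permutation p = 0.6). Cover by H3K9ac was 3830 and 5058 bp in control and 1682, 2660, 2904 and 3471 bp in UUO, lower in each UUO library than in each control library, as for 46.1% of all genes, with an exact permutation p of 0.0667. This call is lost with 1 kb around gene ends, with the longest peaks and per covered Mb, where Nek7 had 112 and 99.0 bp in control and 95.0, 125, 151 and 112 bp in UUO, with a higher mean in UUO.

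Txnip, whose product binds thioredoxin and can activate NLRP3, lay in the widest domain of the 10 genes, on chromosome 3 (96557957 to 96561857). In H3K9cr the window had 18521 and 18381 bp of cover in WT control, 19818 and 17637 bp in ACSS2-/- control, 15418 and 8252 bp in WT UUO, and 11508 and 10869 bp in ACSS2-/- UUO. Every UUO library was below every control library, in both genotypes. With 1 kb around gene ends alone the groups overlapped, and the difference of UUO from control was -125.75 bp (exact permutation p = 0.257) in place of -7077.5 bp. Part of the control cover came from a further peak at the right edge of the window that reached into Polr3gl, 6421, 8172, 11143 and 8066 bp long in the 4 control libraries. In 3 of 4 UUO libraries the peak at that edge was shorter, 2403 and 983 bp in WT and 765 bp in ACSS2-/- replicate 1, and did not reach Polr3gl. These are full lengths, and only bases inside the window count as cover. The peak of WT control replicate 1 (96571501 to 96577921) lay nearly all outside it. That of WT UUO replicate 1 (96570449 to 96572851) began further inside and added more cover. The part of this peak in the difference was not computed. The means were 11512 ± 2961 bp in UUO (SD, n = 4) and 18589 ± 906.4 bp in control (SD, n = 4), a ratio of 0.619 (exact permutation p = 0.0286, the smallest possible, and adjusted p = 0.149 over all genes). Permuted within genotypes, or with the replicate block, the exact permutation p was 0.0556, the smallest possible there, and the groups stayed apart.

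In H3K9ac Txnip had 15354 bp in WT control, 16589 bp in ACSS2-/- control, 8493 and 6387 bp in WT UUO, and 8451 and 11107 bp in ACSS2-/- UUO. The UUO libraries were again all below the controls, with a ratio of means of 0.539 and an exact permutation p of 0.0667. Both statements depend on the window and on the unit. With 1 kb around gene ends neither mark was lower in all UUO libraries than in all controls. As bp of cover per Mb that the library covered in all, Txnip had 307 to 444 bp in H3K9cr control libraries and 236 to 369 bp in H3K9cr UUO libraries, the groups overlapped, and the exact permutation p was 0.2. In H3K9ac these shares were 449 and 325 bp in control and 301 to 480 bp in UUO.

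At the Txnip start itself the mark was present throughout. Most of the difference in H3K9cr cover lay outside 1 kb around gene ends, in part in the separate peak at the right edge of the window. A peak spanned the listed start in each of the 14 libraries. In H3K9cr that peak was 15030, 16006, 17202 and 8990 bp long in control, where it ranked 7, 5, 13 and 102 by length in its list, and 9479, 3862, 6152 and 4835 bp long in UUO, where it ranked 39, 490, 108 and 124. In H3K9ac UUO libraries it was 6001, 6042, 6127 and 8274 bp long, against 11008 and 14332 bp in control, but its ranks overlapped, 22, 41, 20 and 31 in UUO and 22 and 34 in control. The lists differ in length, so ranks are not on one scale. The lengths overlapped in H3K9cr, where WT UUO replicate 1 (9479 bp) exceeded ACSS2-/- control replicate 2 (8990 bp), and were apart in H3K9ac. In 5 of the 8 UUO libraries of both marks the right end of the peak fell between 96562783 and 96562996, and in 6 its left end fell between 96556773 and 96556870.

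**Figure D2:**
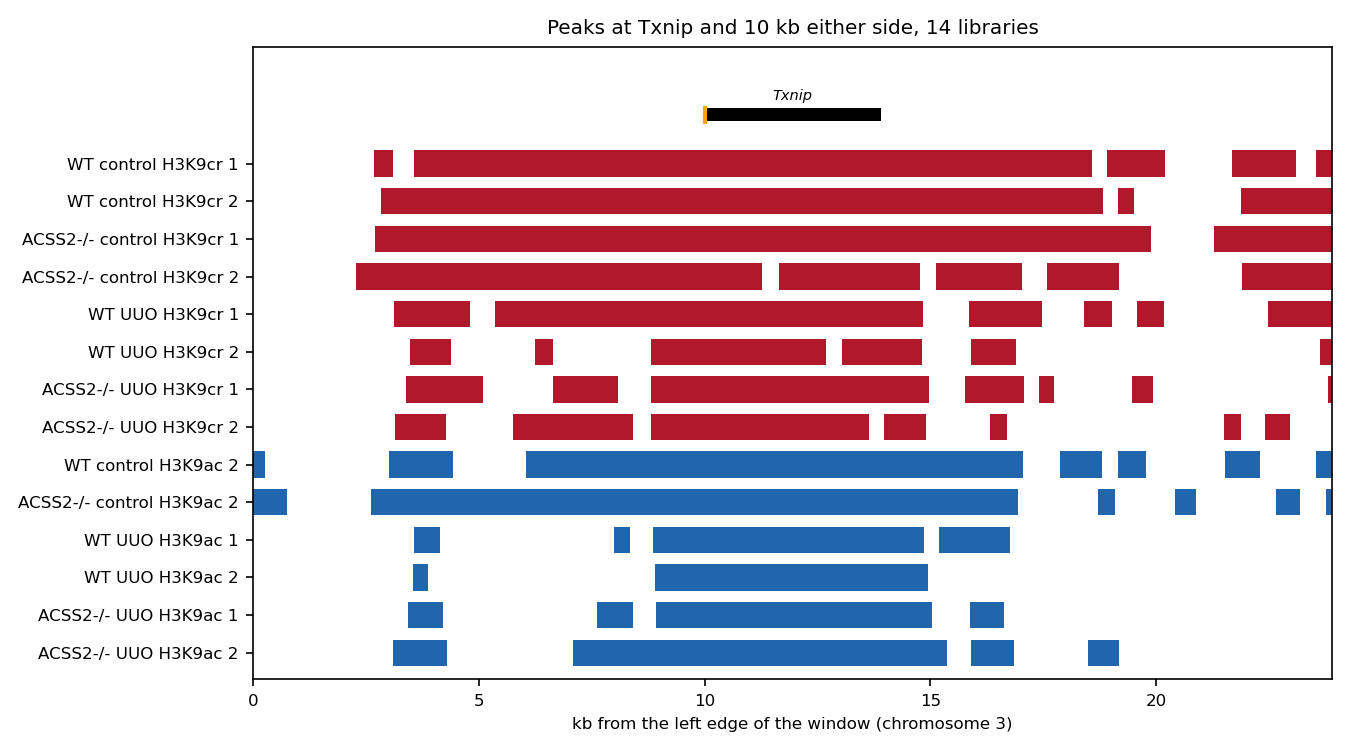
Map of the peaks of the 14 libraries over Txnip (black bar, listed start in orange) with 10 kb either side, the horizontal axis giving kb from the left edge of the window. In H3K9cr, control libraries hold a start peak of 8990 to 17202 bp and UUO libraries one of 3862 to 9479 bp, which overlap.

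Pycard, which encodes the adaptor ASC, had a peak within 1 kb of its start in all 14 libraries. H3K9cr cover in the window was 1139 and 1029 bp in WT control, 2143 and 1353 bp in WT UUO, 1566 and 1698 bp in ACSS2-/- control, and 1391 and 1233 bp in ACSS2-/- UUO. UUO libraries were above control in WT and below control in ACSS2-/-, with no overlap in either genotype. The window of Pycard also holds part of Trim72, and both ACSS2-/- control libraries had a peak at Trim72 that reached into it. The start peak alone measured 1139 and 1029 bp in WT control, 1661 and 1353 bp in WT UUO, 1272 and 1424 bp in ACSS2-/- control and 1391 and 1233 bp in ACSS2-/- UUO, so that only the WT groups stayed apart, and with 3 kb windows or the longest peaks Pycard was not lower in ACSS2-/- UUO. With 1 kb around gene ends it was again lower there, and per covered Mb it was higher, with 35.1 and 41.9 bp against 24.3 and 33.1 bp in ACSS2-/- control.

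Casp1 and Casp4 are neighbours on chromosome 9 (5298517 to 5307281 and 5308849 to 5336791), their windows overlap, and peaks in the shared stretch count for both genes, which are therefore not independent. Casp1 encodes the caspase that inflammasomes activate. In its window H3K9cr cover was 0 and 712 bp in WT control, 0 and 0 bp in ACSS2-/- control, 2289 and 2271 bp in WT UUO, and 1376 and 0 bp in ACSS2-/- UUO. Both WT UUO libraries were above the other 6 H3K9cr libraries. A peak at the Casp1 start itself was seen in 4 of 14 libraries: WT UUO H3K9cr with 963 and 1217 bp, ACSS2-/- UUO H3K9cr replicate 1 with 339 bp and WT UUO H3K9ac replicate 2 with 496 bp. The 712 bp in WT control replicate 2 came from a peak at the start of Casp4. UUO and control differed by 1306 bp on average over both genotypes (exact permutation p = 0.143).

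Casp4 encodes caspase-11, the sensor of cytosolic lipopolysaccharide. Its H3K9cr cover was 1002 and 1598 bp in WT control, 0 and 0 bp in ACSS2-/- control, 2421 and 2240 bp in WT UUO, and 1454 and 322 bp in ACSS2-/- UUO. WT was above ACSS2-/- in both control and UUO, with no overlap, and UUO above control within each genotype. A peak at Casp12, 36241 bp or more to the right of the Casp4 start, contributed to 6 of these 8 values and was the only peak in WT control replicate 1 and in ACSS2-/- UUO replicate 2. With 3 kb windows, which leave it out, and with 1 kb around gene ends, Casp4 was neither higher in ACSS2-/- UUO than in ACSS2-/- control nor lower in ACSS2-/- control than in WT control. Peaks within 1 kb of a Casp4 start were found in 9 of 14 libraries, among them both WT UUO libraries (1326 and 1054 bp) and 1 of 2 ACSS2-/- UUO libraries (1037 bp) of H3K9cr, and all 4 UUO libraries of H3K9ac (461, 1117, 307 and 912 bp).

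**Figure D3:**
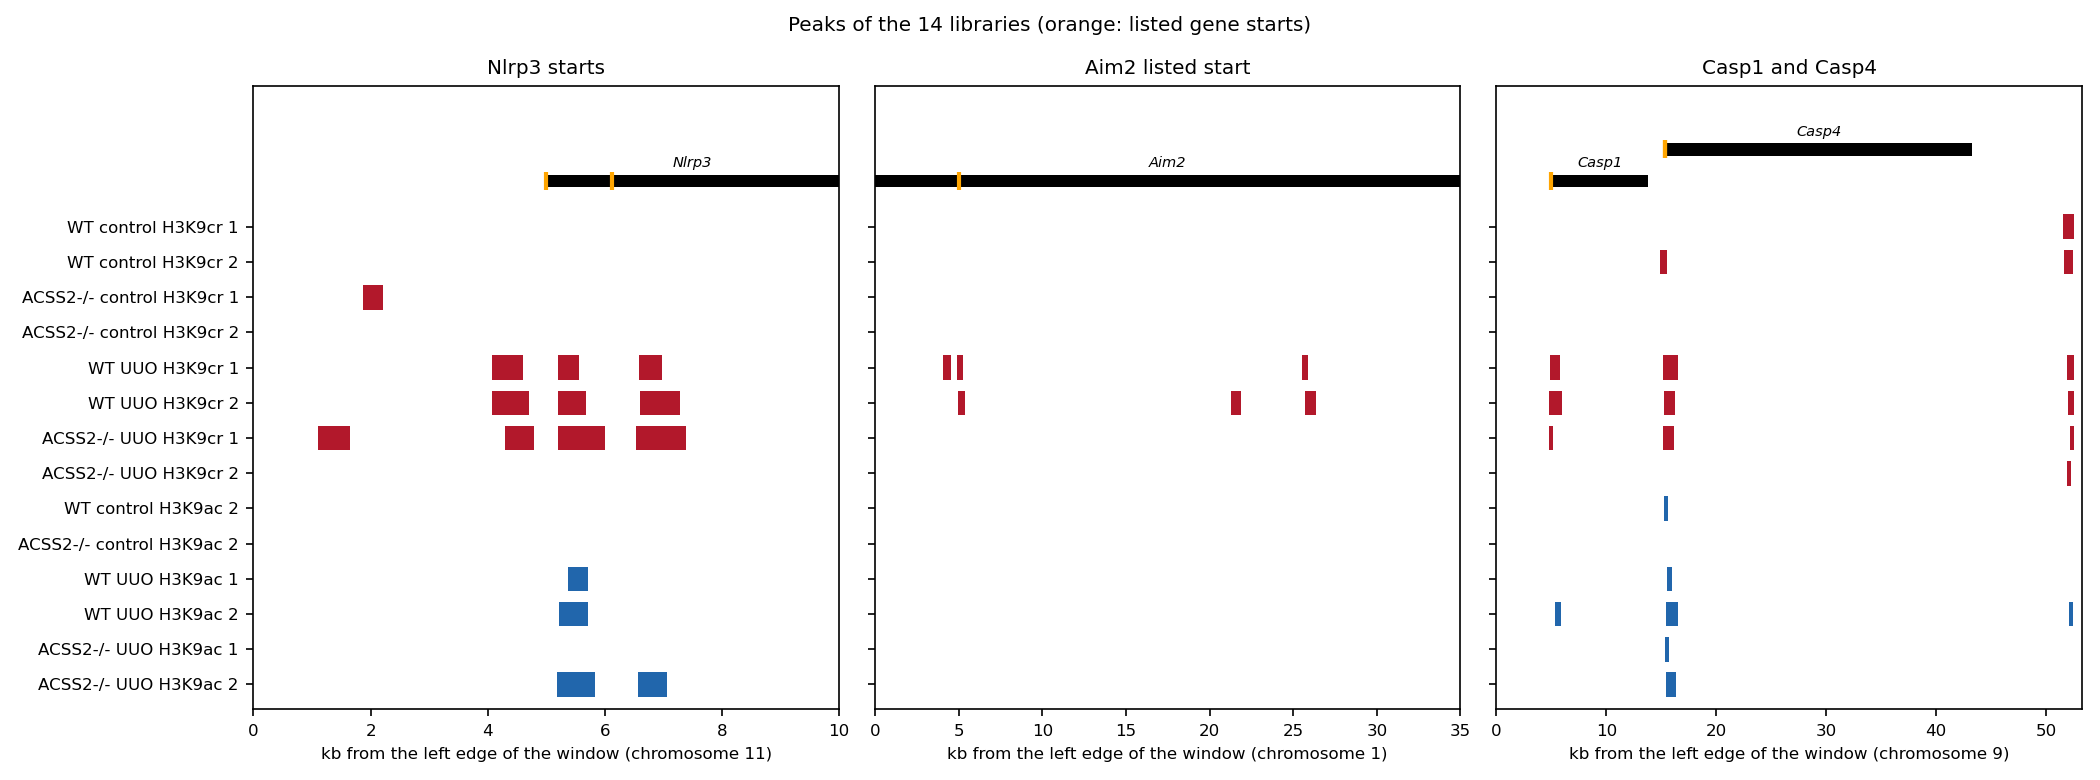
Maps of the peaks of the 14 libraries at the starts of Nlrp3, at the listed start and part of the gene body of Aim2, and over Casp1 and Casp4, with genes as black bars, listed starts in orange and kb from the left edge of each window on the horizontal axis. Nlrp3 has H3K9cr peaks beside its starts in 3 UUO libraries, Aim2 in the 2 WT UUO libraries, and the Casp1 start in 3 UUO libraries.

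Gsdmd encodes gasdermin D, the pore former (chromosome 15, 75862144 to 75867408). Its H3K9cr cover was 363 and 381 bp in WT control, 1453 and 553 bp in ACSS2-/- control, 2025 and 2809 bp in WT UUO, and 2200 and 740 bp in ACSS2-/- UUO. The highest 3 values were UUO libraries, and a single pair overlapped, ACSS2-/- UUO replicate 2 below ACSS2-/- control replicate 1. Compared within replicate numbers the groups did not overlap (replicate block, exact permutation p = 0.0556), but the labels do not say that these numbers pair libraries. Within genotypes they overlapped (exact permutation p = 0.111). Means were 1944 ± 869.9 bp in UUO (SD, n = 4) and 688 ± 517.5 bp in control (SD, n = 4), with an exact permutation p of 0.0571 and an adjusted p of 0.219. As cover per covered Mb the groups did not overlap, 25.1 to 80.3 bp in UUO and 8.51 to 22.5 bp in control.

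A peak at the left end of Gsdmd was present in all 14 libraries, and in H3K9cr it was 363, 381, 899 and 553 bp long in control and 1143, 1254, 1095 and 740 bp in UUO. Peaks to the left of the gene, between positions 75856630 and 75858461, added to the cover in WT UUO (882 and 1555 bp), in ACSS2-/- UUO replicate 1 (736 and 369 bp) and in ACSS2-/- control replicate 1 (554 bp). H3K9ac cover was 600 and 826 bp in control and 626, 539, 747 and 1375 bp in UUO, and overlapped (exact permutation p = 0.867).

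Il18, which encodes the interleukin that caspase-1 matures, is expressed by tubule cells as well as leukocytes. Its H3K9cr cover was 1245 and 748 bp in WT control, 2633 and 1292 bp in ACSS2-/- control, 930 and 926 bp in WT UUO, and 1999 and 907 bp in ACSS2-/- UUO. UUO and control overlapped in both genotypes (exact permutation p = 0.543 over both). H3K9ac cover was 403 and 1188 bp in control, 0 and 0 bp in WT UUO, and 767 and 441 bp in ACSS2-/- UUO. The 2 WT UUO libraries were the only ones of the 14 with no peak at Il18, and Il18 was the only listed gene at which H3K9cr peaks in both WT UUO libraries went with an absence of H3K9ac in both, apart from Aim2. The gene Bco2 overlaps the start of Il18, so peaks there belong to both.

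For H3K9ac, UUO and control were compared over both genotypes. Higher H3K9ac in all 4 UUO libraries than in both control libraries was found for 0 of 9 genes tested (0.369% of all genes), and lower H3K9ac for 2 of 9, Nek7 and Txnip (46.1% of all genes, a larger share than in the list). No gene could reach p under 0.0667 by the exact permutation of 4 against 2, and the count at an unadjusted p under 0.05 was 0. Per covered Mb, 4 of 9 genes (Pycard, Casp1, Casp4 and Gsdmd) were higher in UUO (20.5% of all genes) and 0 lower (11.8%). With the longest peaks 1 gene, Gsdmd, was higher (1.12% of all genes) and 1, Txnip, lower (43.7%), and with 1 kb around gene ends neither Nek7 nor Txnip was lower. Casp1 and Casp4 rest in part on the same peaks, and the control libraries, which covered more, are divided by larger totals. Without ACSS2-/- UUO replicate 1, 3 genes (Nlrp3, Casp1 and Casp4) were higher (0.824% of all genes), and without the WT control library 2 (Casp1 and Casp4, against 0.48% of all genes).

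Between genotypes after UUO, 3 of 10 genes had less H3K9cr in both ACSS2-/- libraries than in both WT libraries (23.8% of all genes): Aim2, Casp1 and Casp4. Higher H3K9cr was found for 0 of 10 (6.76% of all genes). The mean difference of ACSS2-/- from WT was -1404 bp at Aim2, -1592 bp at Casp1 and -1443 bp at Casp4, with an exact permutation p of 0.333, the smallest for 2 against 2. The share of the list that was lower was close to that of all genes. Per covered Mb the same 3 genes were lower (13.5% of all genes) and 1, Il18, was higher (17.8%). ACSS2-/- UUO replicate 2 has the least cover of all H3K9cr libraries: without it 3 genes were lower (29.2% of all genes) and 3 (Nlrp3, Nlrc4 and Il18) higher in ACSS2-/- (31.8%), and without ACSS2-/- UUO replicate 1 the genes that were lower numbered 7 (56.3%). Without WT UUO replicate 2 they numbered 6 (56.2% of all genes), and without WT UUO replicate 1 the higher genes numbered 2, Nek7 and Txnip (25%).

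In the H3K9ac libraries of the same groups, other genes were apart: 3 of 9 (Nek7, Gsdmd and Il18) were higher in ACSS2-/- UUO (28.3% of all genes) and 0 of 9 lower (1.89%). Casp1 had 307 and 912 bp of H3K9ac in ACSS2-/- UUO and 461 and 1613 bp in WT UUO, Casp4 had 307 and 912 bp against 461 and 1921 bp, and Aim2 had no H3K9ac peak. Per covered Mb, 3 genes (Pycard, Gsdmd and Il18) had more H3K9ac (13.7% of all genes) and 0 had less (16.6%). Without ACSS2-/- UUO H3K9ac replicate 2, 3 genes (Nlrp3, Casp1 and Casp4) had less (28.6% of all genes), and without WT UUO H3K9ac replicate 1, 2 (Casp1 and Casp4, against 12.5%). In control kidneys 4 of 9 genes (Nek7, Pycard, Gsdmd and Il18) had more H3K9cr in ACSS2-/- (43.5% of all genes) and 1 of 9, Casp4, had less (3.27%). In both comparisons the share of the list with more of the mark was close to that of all genes. Per covered Mb of the library, 1 gene, Gsdmd, was higher in ACSS2-/- control (12.4% of all genes) and 2, Txnip and Casp4, were lower (26.4%). With the longest peaks 0 genes were higher (34.4% of all genes) and 0 lower (7.35%), so that all 5 calls were lost. With 3 kb windows and with 1 kb around gene ends Casp4 was not lower, and in the latter Nek7 was not higher in H3K9cr or in H3K9ac. The H3K9ac call of Il18 was lost with the longest peaks and with cover of at least 500 bp. Without ACSS2-/- control replicate 2 the genes with more H3K9cr numbered 7 (74.3% of all genes), and without ACSS2-/- UUO replicate 1 those with more H3K9ac also numbered 7 (83.1%). Total H3K9cr cover in control kidneys was 64.6 and 51.4 Mb in ACSS2-/- and 41.7 and 44.8 Mb in WT, and total H3K9ac cover after UUO was 19.3 and 30.9 Mb in ACSS2-/- and 17.7 and 21.2 Mb in WT, which overlapped. The part of these totals in the counts was not tested.

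The marks were compared within the 4 groups by exact permutation of the mark over 324 arrangements. H3K9cr cover exceeded H3K9ac cover at p under 0.05 for 3 of 10 genes (19.8% of all genes), Nek7, Txnip and Il18, and fell short of it for 0 of 10 (6.59%). The mean difference over groups was 1441 bp at Nek7 (exact permutation p = 0.0154), 2760 bp at Txnip (p = 0.0123, exact permutation) and 786 bp at Il18 (p = 0.0123, exact permutation), and their adjusted p were 0.0976, 0.0857 and 0.0857. In each group the H3K9cr lists held more peaks than the H3K9ac lists, and per covered Mb 1 gene was called (11.4% of all genes). This test ignores that both marks came from the same samples. With libraries paired by replicate number (replicate block) 1 gene was called in place of 3 (11.3% of all genes). The labels do not say that these numbers pair libraries. The 6 pairs allow no exact p under 0.03125 and leave out replicate 1 of H3K9cr in both control groups, so the 2 counts are not on one scale. Without ACSS2-/- UUO H3K9cr replicate 2 the number of genes called was 5 (20.6% of all genes).

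Other inflammasome genes were read the same way, as counts of genes with H3K9cr cover in UUO apart from control over both genotypes, where 2.38% of all genes were higher and 16.8% lower. Of 10 other sensors, 7 had cover, 0 were higher and 1 was lower, Nlrp6, with 3265, 3759, 3925 and 1859 bp in control and 600, 410, 1411 and 508 bp in UUO. Nlrp12, Naip1 and Naip6 had no peak in any library. Among 6 other caspases, pore formers and IL-1 substrates, 0 were higher and 1 was lower, Gsdme, with 3533 to 5971 bp in control and 1554 to 1947 bp in UUO. In these 2 lists the share that was lower is near that of all genes. Of the 3 genes for IL-18 binding and its receptor, 1 was higher, Il18r1, with 0 bp in all 4 controls and 3077, 2756, 1482 and 1000 bp in UUO. Of 10 regulators and priming genes, 1 was higher, Zbp1, a sensor of Z-form nucleic acid, with 614 to 1988 bp in control and 2060 to 2746 bp in UUO, and 0 were lower.

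The median difference between UUO and control in H3K9cr cover was 584 bp over the 10 listed genes, 145 bp over the other sensors, -102.5 bp over the caspases, pore formers and substrates, 507.5 bp over the IL-18 genes and 170 bp over the regulators. Over all genes tested it was -239 bp. Lists of 3 to 10 genes carry the spread of their few members, and nothing particular to a list is read from these medians.

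Markers of cell types differed with UUO, and their part in the results above was not tested. Of 11 myeloid markers 10 had cover, and 5 were higher in H3K9cr in all 4 UUO libraries (Ptprc, Tyrobp, C1qa, C1qb and C1qc) and 0 lower, against 2.38% and 16.8% of all genes. Their summed H3K9cr cover was 9754, 13177, 21483 and 16002 bp in control and 69290, 52548, 54809 and 29423 bp in UUO, with C1qc the most covered and Itgam without a peak in any library. C1qa, C1qb and C1qc are neighbours on chromosome 4 (136880126 to 136898844), their windows overlap, and the same peaks count for more than 1 of them. Mean H3K9cr cover of Csf1r (2402 bp in UUO, 2707 bp in control) and Fcer1g (4695 and 5501 bp) was lower in UUO, with overlap. Ptprc, C1qa, C1qb and C1qc had no H3K9cr peak in any control library. The lowest UUO sum, 29423 bp, was that of ACSS2-/- UUO replicate 2, the library without peaks at Nlrp3, Aim2, Nlrc4 and Casp1. ACSS2-/- UUO replicate 1, also without an Aim2 peak, had 54809 bp. WT UUO replicate 2, with Aim2 peaks but none at Nlrc4, had 52548 bp. In H3K9ac the sum was 13562 bp in WT control, 25789 bp in ACSS2-/- control, 17931 and 34785 bp in WT UUO and 20722 and 64924 bp in ACSS2-/- UUO, highest in the ACSS2-/- library with Nlrp3 and Nlrc4 peaks. WT UUO replicate 1, with an Nlrp3 peak, had a lower sum than ACSS2-/- control and ACSS2-/- UUO replicate 1, which had none.

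Of 6 lymphoid markers with cover, 1 was higher in all 4 UUO libraries, Cd3d (2.38% of all genes), and 0 were lower (16.8%). Summed lymphoid H3K9cr cover was 19557 and 21082 bp in WT UUO, 9715 and 9202 bp in ACSS2-/- UUO and 7616 to 8371 bp in control. The WT UUO H3K9cr libraries, which alone held Aim2 peaks, had the largest lymphoid sums of the 14 libraries. Without an Aim2 peak, WT UUO H3K9ac replicate 2 had 18242 bp and ACSS2-/- UUO H3K9ac replicate 2 had 14451 bp. Cd79a was the most covered marker over the 14 libraries together, but in the 2 WT UUO H3K9cr libraries it was Cd3g (5904 and 6723 bp), followed by Cd3d (4460 and 4959 bp), and the windows of Cd3g, Cd3d and Cd3e overlap in turn. Proximal tubule markers were lower in UUO for 4 of 6 (Slc34a1, Lrp2, Slc5a12 and Slc22a6), distal nephron markers for 1 of 4 (Slc12a3) and endothelial markers for 2 of 4 (Cdh5 and Kdr), where 16.8% of all genes were lower, and nothing is read from 1 of 4. Mean cover of Cubn was higher in UUO (4715 bp, control 4404 bp) and that of Slc5a2 lower (198 and 1032 bp), with overlap. The endothelial markers Pecam1 (7661, 7400, 8213 and 2059 bp in UUO, 2350, 3984, 6255 and 5419 bp in control) and Emcn (1535, 1030, 3308 and 1507 bp, 0, 983, 1599 and 786 bp) were on average higher in UUO, with overlap. Injured tubule markers were apart for 0 of 5, and 1 of 4 stroma markers, Col1a1, was higher, where 2.38% of all genes were.

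The genes whose cover over the 14 libraries was most like that of a listed gene were found among 15666 protein-coding genes covered in at least 3 libraries and more than 1 Mb away. Pearson r is given as a description over 14 libraries that share groups, marks and yields. For Nlrp3 they were Adgra1 (r = 0.954), Gm29733 (r = 0.941) and Gm1966 (r = 0.927), and for Nlrc4 Barx2 (r = 0.942), Mrgprf (r = 0.905) and Rmi2 (r = 0.891). For Aim2 they were Kcnip1 (r = 0.973), Pkd1l1 (r = 0.963) and Abca1 (r = 0.944), the last with 4860 and 5934 bp in WT UUO H3K9cr and at most 2986 bp elsewhere. Casp1 was most like Ptpn22 (r = 0.948), Gfi1 (r = 0.943) and Gm8369 (r = 0.935), and Casp4 like Nsmaf (r = 0.882) and Rasal1 (r = 0.858).

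Txnip was most like Scp2 (r = 0.966), Fnip2 (r = 0.964) and Amotl2 (r = 0.960), all covered in 14 libraries and with the largest H3K9cr value in ACSS2-/- control replicate 1. Il18 was most like C1rl (r = 0.937), Engase (r = 0.924) and Prxl2a (r = 0.922). These genes were named by a rank alone, and nothing is read from them about shared function.

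Promoter sequences, 250 bases before to 50 after a start, were matched by gene ID for 9 of the 10 genes, all but Gsdmd, in the RefSeq table of GRCm38.p6. The number of CpG dinucleotides set the listed genes apart: 23 at Nek7 and 24 at Txnip, 5 at Aim2 and at Casp4, 4 and 5 at the starts of Nlrp3, 3 at Pycard and Casp1, 2 at Nlrc4 and 1 at Il18. Over 21263 starts of protein-coding genes, the median was 23 CpG where a peak lay within 1 kb in all 14 libraries (10001 starts), 9 where it did in 1 to 13 (3942 starts) and 3 where it did in none (7320 starts). Nek7 and Txnip, covered at the start in every library, thus have CpG numbers at or next to that median, while Pycard is covered in every library with 3.

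Motifs were searched on both strands as fixed letters, and a match is a description of the sequence only. GAGGAAGT, a PU.1-type ETS word held by 3.2% of 32851 promoters, was found at Aim2 and Pycard. GGANTTTCC, an NF-kB word in 1.25% of promoters, was found at the upstream start of Nlrp3, and CACGTG, the E-box in 7.15%, at Casp1. GGGCGG, the GC box in 35.7%, was found at Aim2, Nek7, Txnip and Pycard, TATAAA (13.6%) at Il18, and GAAANNGAA, an IRF word in 8.56%, at none of the 9. The promoters of 5 genes on which the results turn are given 5′ to 3′ on the strand of the gene, with these matches in capitals.
Nlrp3 upstream promoter, chr11:59541319-59541618, plus strand: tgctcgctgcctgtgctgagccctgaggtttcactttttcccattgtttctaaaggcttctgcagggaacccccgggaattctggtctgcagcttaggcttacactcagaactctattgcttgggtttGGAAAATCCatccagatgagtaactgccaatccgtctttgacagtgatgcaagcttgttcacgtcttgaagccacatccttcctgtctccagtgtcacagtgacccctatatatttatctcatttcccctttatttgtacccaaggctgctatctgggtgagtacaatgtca
Aim2 promoter, chr1:173420354-173420653, plus strand: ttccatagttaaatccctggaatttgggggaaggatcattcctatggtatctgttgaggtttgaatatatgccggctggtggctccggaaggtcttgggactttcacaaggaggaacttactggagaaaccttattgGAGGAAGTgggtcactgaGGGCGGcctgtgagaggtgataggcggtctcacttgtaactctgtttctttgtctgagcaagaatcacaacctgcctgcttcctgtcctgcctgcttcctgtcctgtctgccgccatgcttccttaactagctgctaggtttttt
Txnip promoter, chr3:96557707-96558006, plus strand: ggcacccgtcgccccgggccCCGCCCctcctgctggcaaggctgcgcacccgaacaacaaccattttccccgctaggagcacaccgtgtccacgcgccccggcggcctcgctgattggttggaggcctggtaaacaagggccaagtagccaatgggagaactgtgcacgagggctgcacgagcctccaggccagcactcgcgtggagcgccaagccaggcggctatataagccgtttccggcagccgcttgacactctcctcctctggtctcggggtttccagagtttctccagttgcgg
Pycard promoter, chr7:127993818-127994117, minus strand: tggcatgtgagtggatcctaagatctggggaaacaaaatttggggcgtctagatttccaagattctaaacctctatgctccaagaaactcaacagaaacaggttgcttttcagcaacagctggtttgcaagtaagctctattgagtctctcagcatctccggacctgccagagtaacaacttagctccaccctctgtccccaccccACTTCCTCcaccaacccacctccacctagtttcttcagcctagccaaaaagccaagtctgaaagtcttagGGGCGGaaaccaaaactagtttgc
Casp1 promoter, chr9:5298267-5298566, plus strand: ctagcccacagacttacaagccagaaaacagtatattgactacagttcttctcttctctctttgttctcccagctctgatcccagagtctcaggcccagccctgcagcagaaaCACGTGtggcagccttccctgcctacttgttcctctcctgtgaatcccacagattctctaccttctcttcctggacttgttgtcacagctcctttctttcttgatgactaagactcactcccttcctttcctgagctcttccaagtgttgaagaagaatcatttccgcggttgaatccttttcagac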

How the data were processed

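The authors removed adapters and low-quality reads from paired-end reads of kidney chromatin, aligned them with Bowtie2 to mm10, dropped organelle reads, poor alignments and PCR duplicates, and used MACS2 to call peaks. ChIPseeker is also named in the submitters' processing notes. Versions and the control given to the caller are not given in the sources used here. The deposited files are 14 peak lists, 1 per library, with the positions and names of peaks and no score, height or depth.

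From these, the base pairs of each RefSeq gene (GRCm38.p6, the build named mm10) with 10 kb either side that lay in peaks were counted, in Python 3.11.15 with numpy 2.4.6 and pandas 2.3.3. A peak at a start lay within 1 kb of it. Groups were compared by non-overlap and by a two-sided exact permutation test of libraries, within groups for the marks, with Benjamini-Hochberg adjustment over all genes with cover. The computation was tested on simulated data. Alternatives were 3 kb windows, 1 kb around gene ends, whole peaks, cover per covered Mb, the 15988 longest peaks, cover of at least 500 bp, blocks and left-out libraries. Genes of the other lists were named when they had no peak or were apart between UUO and control in H3K9cr. Some genes that the rules would name are not reported here. The 10 genes and the lists were chosen with earlier results of these data known.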

Additional observations from a re-analysis of the deposited data

Results flagged for a closer look

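Pycard H3K9cr cover went in opposite directions with UUO in the 2 genotypes. UUO exceeded control by 664 bp on average in WT, with both UUO libraries above both controls, and the difference was -320 bp in ACSS2-/-, with both UUO libraries below both controls. Per covered Mb the ACSS2-/- direction turned, with 35.1 and 41.9 bp in UUO above 24.3 and 33.1 bp in control, so that UUO was higher in both genotypes. Both ACSS2-/- control values include part of a peak at Trim72. The start peak alone, with 1272 and 1424 bp in control and 1391 and 1233 bp in UUO, overlapped in ACSS2-/-, and Pycard was not lower there with 3 kb windows or with the longest peaks. The difference between the genotypes was not tested.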

How the results depend on the processing

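Peak lists without heights or depth allow no interval for a value, and groups of 2 libraries allow no exact p under 0.333. Of the counts of genes under all alternatives, 162 stayed within 1.5 times the reported value and 53 did not. No share of all genes was counted for 3 kb windows, 1 kb around gene ends, whole peaks or cover of at least 500 bp. The same holds for comparisons within genotypes, within libraries that have or lack Y peaks and without some of the libraries. Counts under these settings show only how the reported counts move, and nothing about the list is read from them. Of the differences of single genes, read by whether the groups overlap, 153 neither reversed nor changed that reading, 16 came apart, 2 (Txnip with 1 kb around gene ends and per covered Mb) came to overlap, and 9 reversed. Among the 153, 4 fell to 0: Nlrp3, Aim2 and Nlrc4 with the longest peaks and Aim2 around gene ends. For Txnip the exact permutation p among the 153 ran from 0.0286 to 0.333. The cause was not tested.

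The difference between UUO and control in H3K9cr reversed for Nlrc4 to -11.25 bp without ACSS2-/- UUO replicate 1, for Nek7 to -147.75 bp with 1 kb around gene ends and to -228.667 bp without WT UUO replicate 1, for Pycard to -19.75 bp with 1 kb around gene ends, -856.5 bp with whole peaks and -32.3333 bp without WT UUO replicate 1, and for Il18 to 39.75 bp with 3 kb windows, 4.01586 bp per covered Mb and 95.5 bp without ACSS2-/- control replicate 1. With 1 library left out in turn the differences ran from -11.25 to 257.25 bp for Nlrc4, -228.667 to 953.333 bp for Nek7, -32.3333 to 285.333 bp for Pycard and -558.5 to 95.5 bp for Il18.

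Genes with more H3K9cr in UUO numbered 0, and 2 per covered Mb, 1 with the longest peaks, 1 within genotypes, 1 within libraries that have or lack Y peaks, 6 in WT libraries and 0 to 3 with 1 library left out. Those with less numbered 1, and 0 with 1 kb around gene ends, 0 per covered Mb and 1 to 1 with 1 library left out. For H3K9ac, more in UUO numbered 0, then 4 per covered Mb, 1 with the longest peaks and 0 to 3 by leaving out a library, and less numbered 2, then 0 around gene ends, 0 per covered Mb, 1 with the longest peaks and 2 to 3. In ACSS2-/- UUO against WT UUO, more H3K9cr numbered 0, then 1 per covered Mb and 0 to 3, less 3, then 3 to 7, more H3K9ac 3, then 3 to 7, and less 0, then 0 to 3 by leaving out a library.

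In WT, UUO against control gave 6 higher, then 4 with the longest peaks, 5 around gene ends, 7 per covered Mb and 6 to 8 by leaving out a library, which by construction can only add to counts read by non-overlap, and 1 lower, then 1 to 2. In ACSS2-/- it gave 1 higher, then 0 with 3 kb windows, 0 around gene ends, 4 per covered Mb, 0 at 500 bp or more and 1 to 6, and 2 lower, then 1 with 3 kb windows, 0 per covered Mb, 1 with the longest peaks and 2 to 4. In control kidneys ACSS2-/- gave 4 higher, then 1 per covered Mb, 0 with the longest peaks and 4 to 7, and 1 lower, then 0 with 3 kb windows, 0 around gene ends, 2 per covered Mb, 0 with the longest peaks and 1 to 2. More H3K9cr than H3K9ac numbered 3, then 1 per covered Mb and 2 to 5. Covered pairs numbered 101, then 72 with the longest peaks, 86 at 500 bp or more, 90 around gene ends, 99 with 3 kb windows and 91 to 96 with a library, and so 10 pairs, left out.

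Replicate numbers were checked for paired libraries: replicate differences over 16998 genes correlated between H3K9cr groups at -0.182 to 0.458, between H3K9ac UUO groups at 0.303, and between marks at -0.152 in WT UUO and -0.532 in ACSS2-/- UUO. The last 2 are below 0, the reason for which was not tested, and the labels do not say which libraries share a sample. With the replicate block, more H3K9cr in UUO numbered 1 (Gsdmd), more H3K9ac in UUO 3 (replicate number 2 alone), higher H3K9cr in ACSS2-/- UUO than its control 2, less H3K9ac in ACSS2-/- UUO than WT UUO 2, and more H3K9cr than H3K9ac 1 (11.3% of all genes). Apart from that last count, no share of all genes was counted with the block, and nothing about the list is read from these counts. Added after seeing the data, the paired comparison of marks with the UUO pairs crossed called 1 gene. Pairing by the number in peak names gave 5 pairs, which allow no exact p under 0.0625, so that 0 could be called, and 2 genes were higher in H3K9cr in every pair.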
